A study of Homo sapiens with 36 samples.

Results

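N6-methyladenosine (m6A) peaks that differed between UM-SCC-1 cells carrying ALKBH5 shRNA-1 and cells carrying a scramble shRNA were taken as every row of a pair of deposited tables. The effect table lists 13120 peaks in 6335 genes, each with the authors' effect and p-value. The share table lists 721 peaks in 620 genes, each with the authors' estimate of the methylated fraction in either group. Together these are 13841 of the 38650 rows in the 4 effect tables and 4 share tables of the series. UM-SCC-1 is an established cell line derived from an oral squamous cell carcinoma. The cells of the ALKBH5 shRNA-1 group received a retrovirus with an shRNA against ALKBH5, and those of the ALKBH5 scramble group a retrovirus with a scramble shRNA. Both groups were kept for 4 days in 10 ug/mL blasticidin to select infected cells, so every cell compared here carries a virus and has seen the drug. The same scramble libraries served a second hairpin, ALKBH5 shRNA-2, and a further set used RBM33 shRNA-1 and shRNA-2 with a scramble group of its own. The labels give 3 m6A-seq and 3 RNA-seq libraries per group and do not say that these came from separate cultures, so the spread between them may be technical.

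m6A is the most common internal modification of mRNA. A METTL3 and METTL14 complex writes it, ALKBH5 and FTO remove it, and YTH-domain proteins read it, which affects splicing, export, translation and decay of the transcript. ALKBH5 works mainly in the nucleus on newly made RNA. RBM33 binds RNA and is reported as a partner of ALKBH5. When the first base of a capped mRNA is an adenosine it often carries m6Am, a related mark that m6A antibodies also bind. In antibody data a peak at the transcript start can therefore hold m6A, m6Am or both, and these cannot be told apart here.

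The knockdown was checked first in the RNA-seq libraries, of which 2 for shRNA-1 and 3 for scramble are in the table analysed here. ALKBH5 was at 84.7 and 84.8 CPM (depth-normalised read counts) in the shRNA-1 libraries, against 109, 132 and 123 CPM in the scramble libraries. ALKBH5 fell by 0.51 on the log2(CPM + 1) scale (limma SE 0.097, adjusted p = 0.00178), to 70.0% of the scramble level. These are bulk samples, so a drop in fewer cells and less RNA per cell cannot be told apart. In the authors' deposited table the ALKBH5 change was -0.518 on the log2 scale (FDR 0.00205). FTO was at 63.4 and 64.0 CPM in the shRNA-1 libraries and at 78.6, 74.7 and 71.4 CPM in the scramble libraries, a change of -0.23 that did not pass the test (limma adjusted p = 0.218). RBM33 stood at 253 and 249 CPM in the shRNA-1 libraries, against 232, 231 and 227 CPM in the scramble libraries, and its change of 0.13 did not pass either (limma adjusted p = 0.328). Of 10 squamous markers 6 had no row in the RNA table analysed here (KRT5, KRT14, KRT17, KRT6A, TP63 and PKP1). The desmosome gene DSP averaged 195 CPM in shRNA-1 and 201 CPM in scramble libraries, while EPCAM, CDH1 and LAMB3 averaged at most 2.35 CPM in either group. Summed leukocyte markers lay between 1.64 and 6.16 CPM with shRNA-1 and between 2.0 and 4.34 CPM with scramble. Summed fibroblast markers lay between 3.3 and 5.29 CPM with shRNA-1 and between 4.0 and 6.34 CPM with scramble. The only listed endothelial marker stayed at or below 0.86 CPM with shRNA-1 and 1.84 CPM with scramble. PMEL, the only listed melanocyte marker, averaged 6.36 CPM with shRNA-1 and 2.36 CPM with scramble. Among the squamous markers only DSP was well expressed, so these values do not bear out the squamous label. The identity of the cells rests on the name of the line and was not tested. The part of these markers in the results was not tested either.

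The clearest feature of the tables was the transcript start. There, 521 of 544 peaks in the effect table were higher in shRNA-1 cells, against 64.7% of all 13120 listed peaks. The starts with the highest and lowest effects, among genes of at least 10 CPM, are printed below as their first 30 transcribed bases from RefSeq (GRCh38.p14), with DDIT4, an inhibitor of mTORC1 signalling, and a pair of linker histone genes whose shares are given further on. Bases are lower case except GGAC, the core of a common m6A motif, in capitals. An effect is a natural logarithm of shRNA-1 over scramble, so a value of 1 is a 2.72-fold difference.
PGK1: gttccgcattctgcaagcctccggagcgca
NONO: gtttccggcggtcgcgcgctcttttctcgg
RPL37A: ctttctgggctcGGACctaggtcgcggcga
MTFP1: cttcggcgcgGGACtttcggcgggtcccgg
SRA1: caggcactaagctgggcactgggaatgtaa
PIGM: ggaagcgagaccgtccatccagaggaaggc
DDIT4: gcagcaggccaagggggaggtgcgagcgtg
H1-10: agagcgcagcgcgcacgcccagcgagttcc
H1-2: atcggcgctttgccacttgtacccgagttt
MNX1: tctcttaacgggaaggggcagttggaggtg
CREB3: gtagagGGACagtggataggtgcccgaggc
ZNF276: ccccctccgcgcgtactgcgggccccacgg

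The start of PGK1 (chrX:78104248-78104277, plus strand), a glycolytic enzyme gene, lay under the highest effect of the table, 5.99, a peak whose possible overlap with vector sequence is taken up further on. That peak spans chrX:78104169-78104368, and 79 of its bases lie upstream of the RefSeq start. NONO (chrX:71283635-71283664, plus strand), a nuclear RNA- and DNA-binding protein, had an effect of 4.14 at a peak with 43 bases upstream of its start. RPL37A (chr2:216498844-216498873, plus strand), a ribosomal protein gene, had 4.01, and MTFP1 (chr22:30425768-30425797, plus strand), a mitochondrial fission gene, had 3.95. SRA1 (chr5:140558064-140558093, minus strand) had 3.86, and PIGM (chr1:160031961-160031990, minus strand), which acts in GPI anchor synthesis, had 3.85. DDIT4 (chr10:72273924-72273953, plus strand) had 2.80. H1-10 (chr3:129316257-129316286, minus strand) and H1-2 (chr6:26056441-26056470, minus strand) had start effects of 1.71 each. The lower starts were MNX1 (chr7:157009406-157009435, minus strand) at -2.57, CREB3 (chr9:35732666-35732695, plus strand) at -2.17 and ZNF276 (chr16:89721002-89721031, plus strand) at -1.57. Among the 9 other genes only RPL37A and MTFP1 hold GGAC in the bases shown, and among these 3 only CREB3 does.

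Over the first 50 transcribed bases, GGAC on the transcribed strand stood at 21.9% of the 544 start peaks, against 18.9% of all 35116 RefSeq starts, and its reverse complement at 16.2% against 17.6%. The longer word GGACT, which contains GGAC, stood at 5.51% of the start peaks and at 4.9% of all starts, and its reverse complement at 3.12% and 4.91%. The start peaks had 65.5% G and C, against 59.2% over all starts. An adenosine was the first base at 46.9% of the start peaks, against 44.4% of all RefSeq starts and 45.7% of the 6779 starts of genes whose listed peaks lie elsewhere. These motif and base shares differed by a few percentage points, and no test was run on them.

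Across the effect table, 8490 peaks (64.7%) were higher in shRNA-1 cells and 4630 were lower. The higher peaks had a median effect of 1.04 (2.83-fold) and the lower peaks one of -0.951 (0.386-fold). The table starts at an absolute effect of 0.5 (1.65-fold), so weaker differences are outside it, and its p-values reach 0.00603. Effects of at least 1 were listed for 4547 peaks and of -1 or less for 2064. Most peaks (86.7%) were a single window of 50 bases, and the widest covered 535 bases. Effects, shares and p-values of peaks are the authors' values per comparison and carry no replicate error here, because m6A values of single libraries were not used.

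Peaks were divided by position into 4 exclusive classes, assigned in the order given. A peak was at the transcript start when at least 25 of its bases lay in the first 50 RefSeq bases of its gene, at the gene end when its 3′ edge lay within 200 bases of the annotated end, and across exon junctions when it consisted of more than 1 block. The remaining peaks had a single block. Of the 13120 effect peaks 10763 lie in genes with a RefSeq start, as do 614 of the 721 share peaks. Peaks of other genes could not enter the start class, so the other classes may hold some start peaks. At transcript starts 95.8% of 544 peaks were higher in shRNA-1 cells, with a median effect of 1.49. Across exon junctions 81.4% of 2288 peaks were higher, with a median of 0.977. Of the 10029 other single-block peaks 60.1% were higher. At gene ends the direction turned, with 84 of 259 peaks (32.4%) higher and a median of -0.706. Start, junction and other single-block peaks stood above 50% and gene ends below it, against 64.7% in the whole table. Peaks with 3 or more blocks were higher in 85.5% of 117 cases, and peaks of 2 blocks in 81.4% of 2272.

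The start signal was narrow. Single-block peaks whose 5′ edge lay within 25 bases of the RefSeq start were higher in 97.6% of 375 cases, and those beginning 26 to 75 bases downstream in 85.7% of 230. From 76 to 125 bases downstream 33.8% of 151 peaks were higher, and from 126 to 175 bases 15.4% of 130, with a median effect of -0.894. The share higher then climbed to 21.6% at 176 to 225 bases, 30.4% at 226 to 325 bases, 38.1% at 426 to 625 bases and 43.6% at 626 to 1025 bases. All windows past 75 bases were thus below the 64.7% of the whole table.

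**Figure D1:**
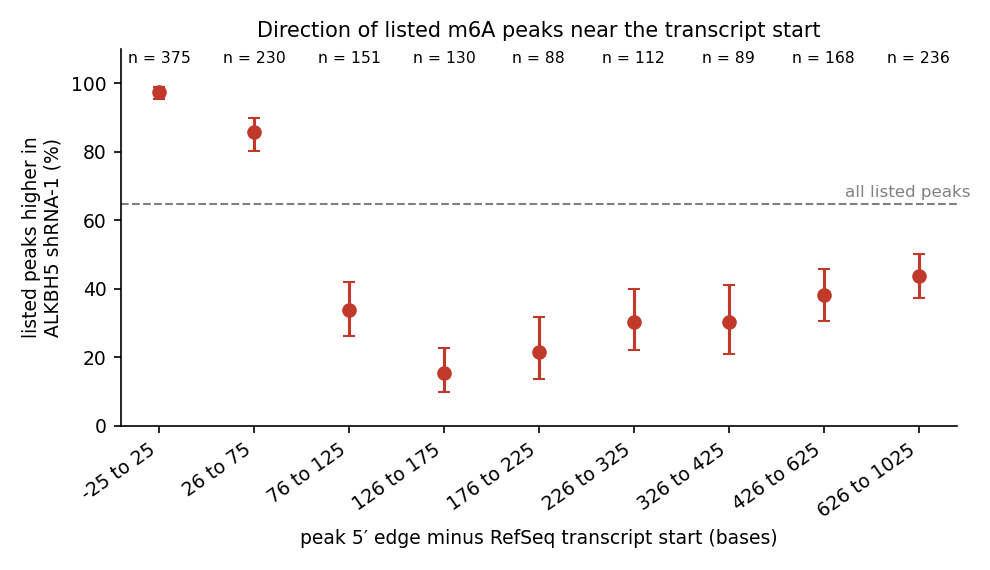
Percentage of listed single-block peaks that were higher in ALKBH5 shRNA-1 than in scramble cells (vertical axis) by the distance of the peak's 5′ edge from the RefSeq transcript start in bases (horizontal axis). Points are percentages with exact (Clopper-Pearson) 95% binomial intervals, which treat peaks as independent and cover counting error only, and the dashed line is the 64.7% of all listed peaks. The percentage is 97.6% at the start and 15.4% at 126 to 175 bases.

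Of the 520 genes with a higher start peak, 338 carried 843 other listed peaks. Most of these were higher as well, 615 (73.0%) against 64.7% of the whole table, and 228 were lower, so that 159 genes combined a higher start with at least 1 lower peak elsewhere. JUN, an AP-1 subunit, had a start effect of 2.32 and 4 further peaks between -0.75 and -0.62. DDIT4 had 2.80 at its start, 1.37, 1.22 and 0.89 at 3 further peaks and -0.57 at another. Only 23 start peaks were lower. They included FBXO2 (-3.01), which encodes a substrate-recognition subunit of a ubiquitin ligase, the fatty acid desaturase gene SCD (-1.55), asparagine synthetase, ASNS (-1.37), and the stress-induced factor ATF3 (-1.20). The other 6 ATF3 peaks were higher, at 0.58 to 1.08.

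Direction also followed how strongly the gene was expressed. The peaks were put into 6 bins of near equal size by the mean CPM of their gene over the 7 RNA-seq libraries of the ALKBH5 set. In the lowest bin (0.345 to 20.8 CPM) 42.7% of 2162 peaks were higher in shRNA-1 cells, and in the following bins 55.9%, 63.5%, 69.7%, 73.9% and 82.8%, the last for genes of 184 to 7090 CPM. The increase held within the other single-block peaks, with 735 of 1846 higher (39.8%) in the lowest bin and 1151 of 1438 in the highest, and within junction peaks, with 60.2% in the lowest bin and 90.3% in the highest. Start peaks lay between 90.0% and 98.8% in every bin. Gene-end peaks lay between 16.0% and 55.9% with 25 to 75 peaks per bin. Median CPM was 77.5 for genes with start peaks, 87.2 for junction peaks, 58.0 for other single-block peaks and 38.4 for gene-end peaks. The read depth behind each peak was not used, and its part in this order was not tested.

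**Figure D2:**
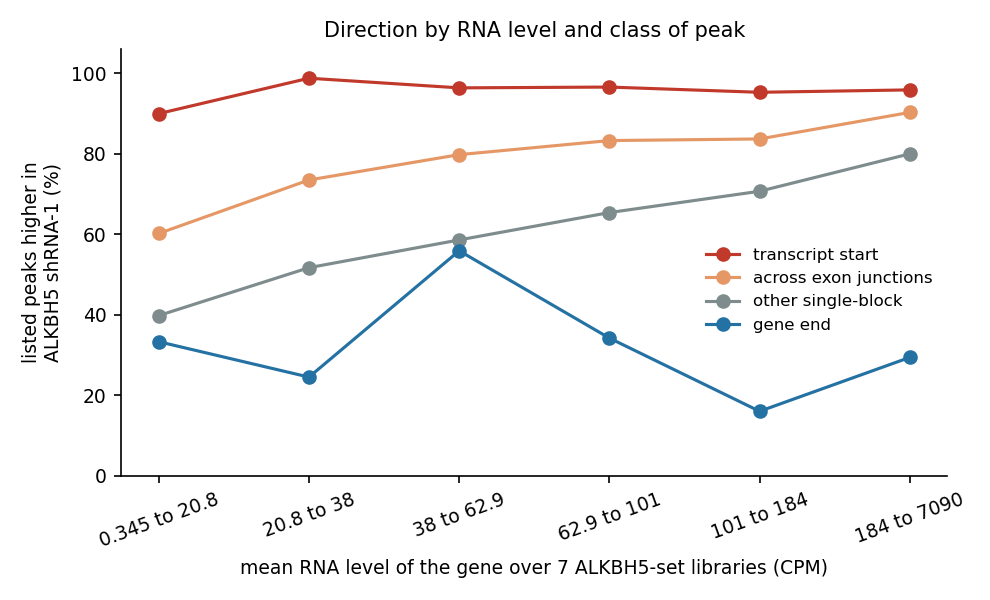
Percentage of listed peaks higher in ALKBH5 shRNA-1 than in scramble cells (vertical axis) in 6 bins of the gene's mean RNA level in CPM over the 7 ALKBH5-set libraries (horizontal axis), with 1 line per class of peak and no error shown. Transcript starts stay between 90.0% and 98.8%, while other single-block peaks stand at 39.8% in the lowest bin and at 1151 of 1438 peaks in the highest.

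Set beside the other effect tables, as a description without a test, the start class took up more of the shRNA-1 table, at 4.15% of its peaks, against 0.478% with ALKBH5 shRNA-2, 0.628% with RBM33 shRNA-1 and 0.49% with RBM33 shRNA-2. Its direction differed from that with ALKBH5 shRNA-2, where 28.3% of 92 start peaks were higher. Start peaks were higher in 10 of 13 cases with RBM33 shRNA-1 and in 14 of 16 with RBM33 shRNA-2. Over all listed peaks 72.5% were higher with ALKBH5 shRNA-2, 87.6% with RBM33 shRNA-1 and 87.5% with RBM33 shRNA-2. The few RBM33 starts thus did not stand out from their own tables. In the shRNA-1 table, 605 single-block peaks began between 25 bases upstream and 75 bases downstream of a start, and 93.1% of these were higher. In the ALKBH5 shRNA-2 table, 168 peaks began there and 13.7% were higher. The RBM33 shRNA-1 table held 15 such peaks with 12 higher, and that of RBM33 shRNA-2 held 20 with 17 higher. From 76 to 225 bases 24.4% of 369 peaks were higher with ALKBH5 shRNA-1, against 47.5% of 265 with ALKBH5 shRNA-2, 88.0% of 25 with RBM33 shRNA-1 and 91.9% of 74 with RBM33 shRNA-2. Both ALKBH5 tables rest on the same scramble libraries, so their values are not independent. At 38 start peaks listed for both ALKBH5 hairpins, the median effect was 1.37 with shRNA-1, with 32 higher, and -0.638 with shRNA-2, with 13 higher. Junction peaks were higher in most cases in each table, at 81.4% with ALKBH5 shRNA-1, against 92.8% with ALKBH5 shRNA-2, 92.8% with RBM33 shRNA-1 and 94.4% with RBM33 shRNA-2. Gene ends were higher in 32.4% of cases with ALKBH5 shRNA-1, against 61.0%, 77.1% and 86.7% in those same tables in that order.

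**Figure D3:**
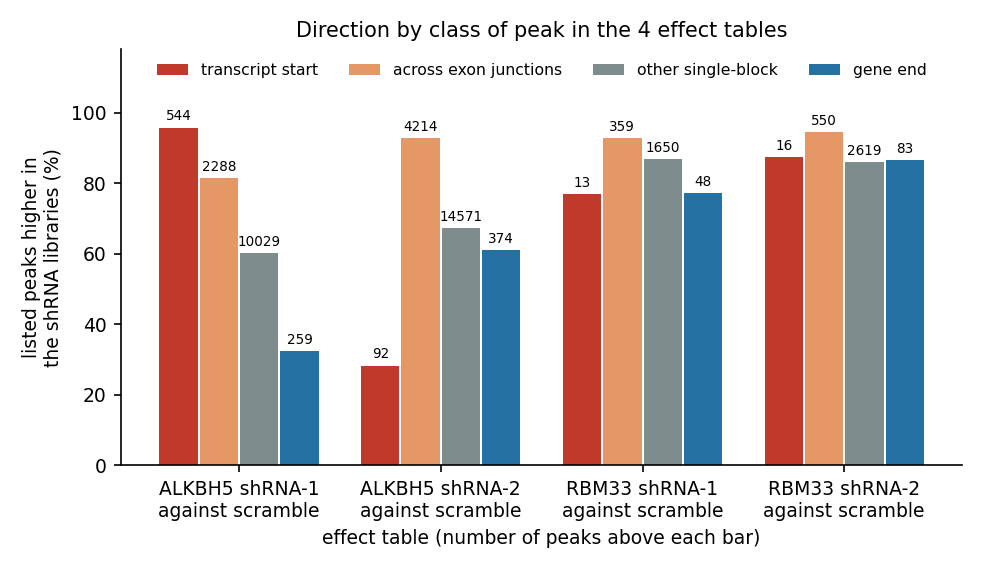
Percentage of listed peaks that were higher in the shRNA libraries than in their scramble (vertical axis, from 0) in the 4 effect tables (horizontal axis), with 1 bar per class of peak and the number of peaks above each bar, and no error shown. Transcript starts stand at 95.8% of 544 peaks with ALKBH5 shRNA-1 and at 28.3% of 92 with ALKBH5 shRNA-2.

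Of the 13120 peaks, 3866 (29.5%) overlapped a peak of the same strand in the ALKBH5 shRNA-2 table by at least 1 base, which took up 3816 (19.8%) of its 19251 peaks. With the RBM33 shRNA-1 table, 306 peaks (2.33%) overlapped 303 of its 2070 peaks (14.6%), and with the RBM33 shRNA-2 table, 393 peaks (3.0%) overlapped 390 of its 3268 (11.9%). Peaks found only with ALKBH5 shRNA-1 numbered 9038 (68.9%), of which 59.3% were higher. A set of 113 peaks stood in all 4 effect tables, and 104 of them were higher with ALKBH5 shRNA-1. The start peak of PGK1 had effects of 5.99 with ALKBH5 shRNA-1, 6.37 with ALKBH5 shRNA-2, 8.60 with RBM33 shRNA-1 and 8.73 with RBM33 shRNA-2. A PGK promoter is a common element of retroviral vectors, the labels do not name the promoters of the vectors used, and 79 bases of this peak lie upstream of the RefSeq start. Whether vector reads are part of this peak was not tested. MBD6 had 3.18, 3.66, 3.06 and 3.43 in the same order. MAT2A, the enzyme that makes the methyl donor S-adenosylmethionine, had 2.64, 3.13, 2.13 and 2.81. JUNB, an AP-1 subunit, was among the 9 lower peaks, with -0.92, -0.79, -0.73 and -0.64. The other lower peaks of this set lay in AGAP3, ANKRD11, INF2, IP6K2, NSD1 and the locus named LOC100506548, with 2 in ANKRD11 and 2 in IP6K2.

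Among genes of at least 10 CPM the 12 highest effects fell in different kinds of peaks. PGK1 and NONO had theirs at the transcript start. TNRC6A, a scaffold of microRNA silencing, had 4.24 at a junction peak. Other single-block peaks stood at 4.42 in ZNF609, 4.28 in the nuclease gene DNASE1 and in EXOSC4, a subunit of the RNA exosome, and 4.25 in KMT2B, a histone H3K4 methyltransferase. TUBGCP6 (4.16), SSX2IP (4.14), the chromatin remodeller CHD3 (4.11) and WDR48 (4.11) were also among them. The 5′ edges of the EXOSC4 and WDR48 peaks lay at -29 and -27 bases from the annotated gene start, although these peaks did not meet the rule for the start class. The 12 lowest effects included POLRMT (-4.63), the mitochondrial RNA polymerase, NCAPH2 (-4.43), a condensin subunit, CERS1 (-4.09), a ceramide synthase, MAP3K1 (-4.06), and BRIP1 (-3.97), a DNA repair helicase. GPN2 (-4.44), SPEG (-4.41), ARL10 (-4.33), SRGAP2 (-4.16), TMEM138 (-4.08), MCUR1 (-3.99) and IFFO1 (-3.93) completed them. In hg38, the build named in the processing notes, the ZNF609 peak spans chr15:64678414-64678463 on the plus strand. The POLRMT peak spans chr19:629768-629817 on the minus strand and the BRIP1 peak chr17:61683252-61683301 on the minus strand. All 12 lowest peaks were 50 bases wide, 11 with a single block and ARL10 across a junction. At the RNA level KMT2B and TNRC6A rose by 0.42 and 0.39, NCAPH2 rose by 0.66 and BRIP1 fell by 0.55 on the log2 scale (limma adjusted p = 0.0213, 0.00831, 0.00113 and 0.00212 in that order). KMT2B no longer passed without scramble replicate 2 or 3 (limma adjusted p = 0.0504 and 0.0657) or without shRNA-1 replicate 1 (0.248). BRIP1 no longer passed without shRNA-1 replicate 1 (limma adjusted p = 0.0507), nor TNRC6A without shRNA-1 replicate 2 (0.129). NONO was at 510 and 575 CPM in the shRNA-1 libraries and at 559, 541 and 520 CPM in the scramble libraries, a range that overlaps.

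The peaks were unevenly spread over genes. A single peak was listed in 3282 genes, and 5 or more in 480. Peaks were only higher in 3126 genes, only lower in 1874 and in both directions in 1335, with median RNA levels of 50.3, 25.4 and 65.7 CPM in that order. Of 50 genes with at least 10 peaks, 46 had mostly higher ones, 17 had only higher ones and 0 had only lower ones. The 10 genes with the most peaks had RNA levels between 125.1 and 1021 CPM. These levels fall in the upper bins of RNA level, where 73.9% and 82.8% of peaks were higher, against 64.7% of all peaks. The part of RNA level in these counts was not tested. KMT2D, a histone H3K4 methyltransferase often mutated in head and neck cancer, had 24 peaks, 21 of them higher, with a median of 1.15. AKAP12, a kinase-anchoring protein, had 21 of 21 higher, and EIF4G1, the scaffold of cap-dependent translation initiation, 19 of 20. The spectrin gene SPTBN1 had 18 of 18, the chromatin remodeller SRCAP 16 of 16, CEP250 14 of 14, and PRRC2B and the cohesin gene SMC1A 13 of 14 each. SRRM2, a splicing speckle protein, had 10 higher and 4 lower peaks. KMT2D RNA was at 351 and 293 CPM in the shRNA-1 libraries, against 195, 201 and 199 CPM in the scramble libraries. KMT2D rose by 0.69 (log2, SE 0.0856; limma adjusted p = 1.13e-05), and EIF4G1 rose by 0.37 (limma adjusted p = 0.00256, but 0.0520 without shRNA-1 replicate 1). AKAP12 had a change of -0.05 that did not pass the test (limma adjusted p = 0.762).

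By gene type, 12686 peaks lay in protein-coding genes, with 64.8% higher. The 170 peaks in long noncoding RNAs were higher in 59.4% of cases, and their genes had a median level of 14.8 CPM, against 64.0 CPM for the protein-coding ones. The highest noncoding effects were in GUSBP11 (3.93), HOXA10-AS (3.91) and CCDC183-AS1 (3.07), and the lowest in ST20-AS1 (-3.97) and SLC25A5-AS1 (-3.28). By chromosome the percentage higher ran between 54.5% on chromosome 19 and 73.5% on chromosome X.

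The m6A machinery itself carried listed peaks. ALKBH5 had lower peaks at -1.03 and -1.81 and a higher junction peak at 1.02, and its RNA was reduced as given above. In the share table an ALKBH5 gene-end peak was higher, at 60.14% in shRNA-1 and 34.35% in scramble cells (authors' adjusted p = 0.0998). FTO had higher peaks at 1.16 and 0.66. RBM33 had 8 peaks, 7 of them higher, between -1.07 and 1.13. Among 13 writers, 9 had peaks, 20 higher (76.9%) and 6 lower, against 64.7% higher in the whole table. The writers' median level was 141 CPM over peaks, and 76.9% is close to the 73.9% of that bin of RNA level. RBM15, which guides the writer complex, had 6 higher peaks between 0.62 and 1.50, ZC3H13 had 8 higher ones between 0.62 and 1.73, and METTL3 had 1 at 1.02. WTAP, a core writer subunit, had 2 lower peaks (-0.70 and -1.27) and 1 higher (0.82). Reader genes had 49 of 56 peaks higher, in genes with a median level of 525 CPM over peaks. This was 87.5%, against 64.7% in the whole table and 82.8% in the highest bin of RNA level. The readers included HNRNPC (2.87 at its start), HNRNPA2B1 (2.36 at its start), IGF2BP2 (2.41 at its start and -1.52 elsewhere) and the nuclear reader YTHDC1 (1.39 and 1.79), whereas both IGF2BP3 peaks were lower (-0.89 and -0.56). YTHDC1 RNA was at 248 and 274 CPM in shRNA-1 libraries, against 208, 206 and 203 CPM in scramble libraries, and rose by 0.34 (limma adjusted p = 0.00922, but 0.138 without shRNA-1 replicate 2).

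Stress and folding genes were mostly on the higher side. They are strongly expressed, and of all peaks in the highest bin of RNA level 82.8% were higher. Of the endoplasmic reticulum chaperone and unfolded protein response list 45 of 49 peaks were higher (91.8%) in 15 genes with peaks, at a median level of 637 CPM over peaks. HSPA5, which encodes the chaperone BiP, had 4 higher peaks, at 2.08 at its start and 0.99, 0.82 and 0.71 elsewhere. HSP90B1 had 9 higher peaks between 0.60 and 1.15, and CALR had 7 higher, up to 3.17, and 1 lower. XBP1, the spliced transcription factor of this response, had only lower peaks, at -0.86 and -0.98. HSPA5 RNA was at 450 and 440 CPM in shRNA-1 libraries, against 896, 956 and 861 CPM in scramble libraries. The groups were far apart and HSPA5 fell by 1.02 (log2, SE 0.0812; limma adjusted p = 1.47e-08). HSP90B1 fell by 0.48 (limma adjusted p = 0.00074), and of the 20 genes of the list 4 fell and 0 rose, against 3.48% of all 18227 genes tested that fell and 5.05% that rose.

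Of the heat shock list 33 of 38 peaks were higher (86.8%, against 64.7% of all peaks and 82.8% in the highest bin of RNA level), at a median level of 340 CPM over peaks. HSP90AA1, the inducible cytosolic HSP90, had 10 higher peaks between 0.63 and 1.44, 1 of them at its start. HSPA8, the constitutive HSP70, had 1.51 and 0.96, and DNAJA1 had 4 higher peaks up to 1.27. In the share table a separate HSPA8 peak was lower, at 40.7% in shRNA-1 and 83.6% in scramble cells (authors' adjusted p = 0.0336). HSPA1B, an inducible HSP70 gene, had lower peaks at -1.19 and -1.22. HSPA1B RNA was at 528 and 454 CPM in shRNA-1 libraries, against 29.0, 31.8 and 37.7 CPM in scramble libraries. This was a rise of 3.87 (log2, SE 0.106; limma adjusted p = 3.67e-18), although reads of this gene and its near-identical copy HSPA1A may be split between them. HSPA8 RNA was at 459 and 465 CPM in shRNA-1 libraries, against 210, 169 and 166 CPM in scramble libraries, a rise of 1.35 (limma adjusted p = 3.46e-09). Of 23 heat shock genes tested 16 rose and 0 fell, against 5.05% and 3.48% of all 18227 genes.

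Genes of RNA processing and chromatin formed the next groups. SR and hnRNP splicing factors had 100 of 123 peaks higher (81.3%), with at least 1 peak in 31 of 33 genes. That percentage is above the 64.7% of all peaks and close to the 82.8% of peaks in the highest bin of RNA level, and the list's median level was 418 CPM over peaks. Start peaks stood at 2.12 in HNRNPM, 2.02 in SRSF1, 1.82 in HNRNPD, 1.80 in SRSF3 and 1.75 in HNRNPL, and SRSF2 had 1 peak, which was lower. Of 33 genes tested RNA rose in 10 and fell in 1, against 5.05% and 3.48% of all genes. mRNA export factors had 28 of 32 peaks higher (87.5%), among them ALYREF (2.80) and THOC2 (1.75 at its start). Their median level was 100 CPM over peaks, in a bin with 69.7% of peaks higher. RNA of export factors rose in 5 and fell in 1 of 22 tested, against the same 5.05% and 3.48%. Chromatin remodellers had 97 of 116 higher (83.6%), with 6 of 6 in CHD3 and 9 of 9 in CHD4. At a median level of 223 CPM over peaks, that percentage is close to the 82.8% of the highest bin. ARID1A, a subunit of the BAF complex, had 5 lower peaks of -1.96 to -0.90 and 4 higher. H3K4 and H3K27 enzymes had 105 of 140 higher, at a median level of 249 CPM over peaks. That fraction is above the 64.7% of all peaks but below the 82.8% of the highest bin, in which this level falls. CLK and SRPK kinases, which phosphorylate SR proteins, had 14 of 17 higher (82.4%), DNA damage response genes 41 of 50 (82.0%) and cell cycle genes 43 of 60 (71.7%). Median levels of these lists were 113, 105 and 92.1 CPM over peaks, in bins with 73.9%, 73.9% and 69.7% of peaks higher.

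The lists with the lowest percentages ran between 48.4% and 62.5% higher, against 64.7% in the whole table. TGF-beta and SMAD genes had 15 of 31 peaks higher (48.4%), with 5 lower peaks in the inhibitor SMAD6 (-1.18 to -0.95), 4 in the ligand TGFB1 (-2.12 to -0.76) and 4 higher peaks in SKIL. SMAD6 RNA was at 33.4 and 36.5 CPM in shRNA-1 libraries and 20.4, 19.7 and 26.6 CPM in scramble libraries, a rise of 0.64 (limma adjusted p = 0.00963, but 0.0534 and 0.103 without shRNA-1 replicate 1 or 2). AP-1 and immediate early genes had 23 of 43 higher (53.5%). JUNB (-0.92 and -1.66), JUND (-1.42, -0.90 and -0.64) and MYC (-1.65, -1.35 and -0.60) had only lower peaks, IER5 had 6 lower of 7, and EGR1 had 3 higher ones (2.73, 1.90 and 1.00). JUNB RNA was at 17.5 and 18.6 CPM in shRNA-1 libraries and 7.71, 8.14 and 7.54 CPM in scramble libraries, a rise of 1.11 (limma adjusted p = 0.00111). p53 targets had 16 of 30 peaks higher (53.3%), laminins, integrins and matrix genes 8 of 15 (53.3%), cholesterol synthesis genes 11 of 20 (55.0%), Notch and Wnt genes 27 of 48 (56.2%) and YAP targets 15 of 24 (62.5%).

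The remaining lists ran between 62.7% and 77.8% higher. mTORC1 regulators had 26 of 41 peaks higher (63.4%), among them RPTOR (2.94 to -1.14) and TSC1 (5 of 6 higher, up to 2.74), while RHEB, the GTPase that activates mTORC1, had a lower peak at -2.67. ATF4 and amino acid response genes had 59 of 88 higher (67.0%), with 8 of 8 in STC2 and 4 lower of 4 in CEBPB. Autophagy genes had 20 of 31 (64.5%), EGFR and MAPK genes 14 of 18 (77.8%), head and neck cancer driver genes 52 of 83 (62.7%) and cytosolic ribosomal protein genes 25 of 37 (67.6%). Ribosomal gene-end peaks were lower in RPL18, RPL24, RPL35, RPS2 and RPS27 and higher in RPS21 (0.57), and start peaks were higher in RPL12 (1.87), RPLP2 (1.45) and RPL35 (1.38). List medians of CPM over peaks ran between 36.8 (autophagy) and 650 (ribosomal proteins), and the part of RNA level in these percentages was not tested.

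The share table gives a methylated fraction per group instead of a ratio. The sources used here do not say how the fraction was estimated, so a share of 100% need not mean that every molecule was methylated. The authors' adjusted p of its rows runs between 1.36e-23 and 0.0998, with 515 rows under 0.05. Of the 721 peaks 488 (67.7%) had a higher share in shRNA-1 cells. The median share was 55.8% with shRNA-1 and 38.5% with scramble. At the 147 transcript starts 138 shares were higher, with medians of 52.8% in shRNA-1 and 18.8% in scramble cells and a median difference of 30.9 percentage points. Junction peaks had medians of 45.7% with shRNA-1 and 33.7% with scramble, and 72.0% of 161 were higher. Gene-end peaks had 44.6% with shRNA-1 and 51.1% with scramble, and 8 of 27 were higher. The other single-block peaks had 61.4% with shRNA-1 and 56.5% with scramble, with 58.5% of 386 higher.

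The direction also went with where a share stood. Of 198 peaks at up to 20% in scramble cells 96.5% were higher with shRNA-1, and of 87 at over 80% in scramble cells 8.05% were. Sorted by the shRNA-1 share instead, 12 of 60 peaks at up to 20% and 86.5% of 104 peaks over 80% were higher. Only peaks that differed are listed, so these percentages are a description.

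**Figure D4:**
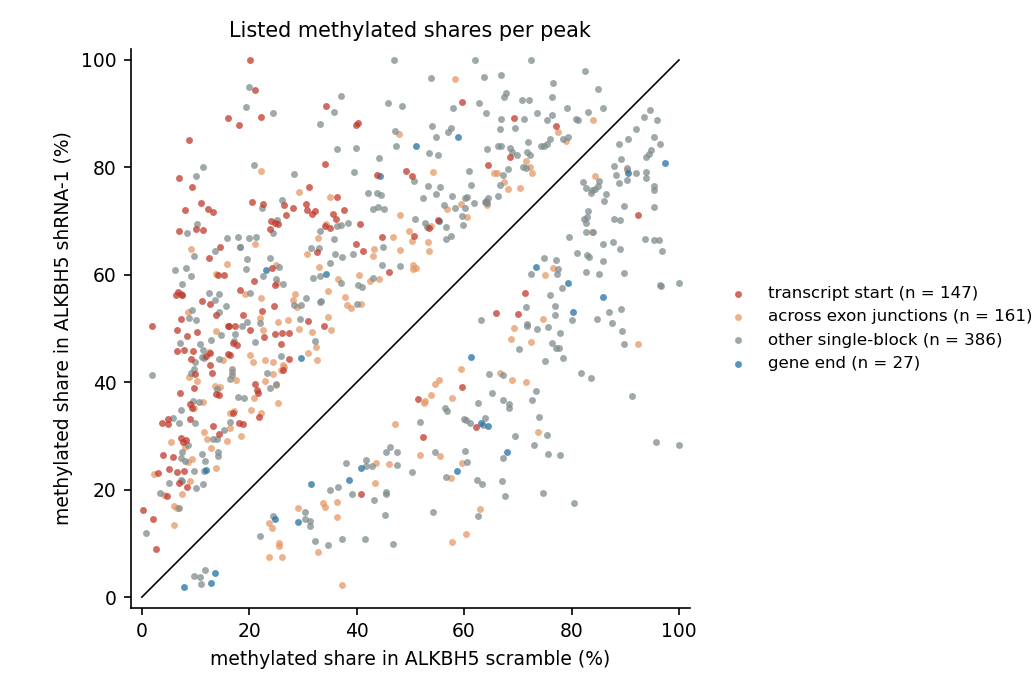
Methylated share in ALKBH5 shRNA-1 cells (vertical axis, %) against that in scramble cells (horizontal axis, %) for the 721 listed peaks, 1 point per peak, coloured by class, with the line of equal shares. Transcript starts lie above the line in 138 of 147 cases, and the empty band along the line holds the differences too small to be listed.

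The largest increases were in DNM2, the endocytic GTPase dynamin 2 (100% in shRNA-1 and 20.1% in scramble cells), and PPP4C, a phosphatase catalytic subunit (85.1% and 8.74%), both at the transcript start. Next came the RNA helicase gene DDX6 with a gap of 75.1 points, ELOA with 94.5% in shRNA-1 and 21.1% in scramble cells, NOP2 with 89.3% and 16.0%, RPS6KB2 with a gap of 71.9 points, and PGRMC1 with 78.1% and 6.96%. FBH1, ARMCX3 and RPS10 rounded off the 10, each with a gap of at least 68.4 points. DDX6, RPS6KB2, ARMCX3 and RPS10 were outside the start class, although the 5′ edges of the DDX6, RPS6KB2 and RPS10 peaks lay at -49, 4 and 44 bases from the annotated gene start. The largest decreases were in the mitochondrial import protein CHCHD4 (28.3% in shRNA-1 and 100% in scramble cells), FAM8A1 (28.9% and 95.7%) and the cohesin regulator PDS5A (17.5% and 80.5%), none at a transcript start. RNPEP, PDXP, CPSF7, SLC25A33, TNFRSF10B, RPE and ATAD2 followed, with differences between -55.4 and -47.5 points. Among the lowest adjusted p were YBX1 at its start (89.2% in shRNA-1 and 69.3% in scramble cells), PGK1 (44.8% in shRNA-1 and 11.97% in scramble cells), the triosephosphate isomerase gene TPI1 (30.9 points higher in shRNA-1 cells than the 7.10% of scramble cells), and SOX4 within the gene (70.3% and 87.9%).

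The tables overlapped at 472 of the 721 share peaks (65.5%) and 535 of the 13120 effect peaks (4.08%). Of 536 overlapping pairs 356 were higher in both tables, 169 lower in both and 11 opposite. CALR was among the opposite ones, with a share of 61.1% in shRNA-1 and 50.4% in scramble cells and an effect of -0.90. These tables come from the same libraries and are no independent check of each other. In MTFP1 the directions differed within the gene. Its start had an effect of 3.95, while a peak within the gene had a share of 9.90% in shRNA-1 and 46.8% in scramble cells and an effect of -1.91.

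Histone genes, a group chosen after their values were seen, are described next. Their mRNAs are short, and those of the replication-dependent genes mostly lack introns and poly(A) tails. The share table listed 35 peaks in 23 histone genes. At transcript starts 11 of 12 shares were higher in shRNA-1 cells, against 93.9% of all 147 start shares, the exception being H3C13 (36.9% in shRNA-1 and 51.5% in scramble cells). Elsewhere 21 of 23 were lower and 2 higher, while 61.0% of all 574 shares outside the start class were higher. Just downstream of starts, however, the listed effects of all genes were mostly lower too. Single-block effect peaks were higher in 24.4% of 369 cases at 76 to 225 bases, and in 33.9% of 369 at 226 to 625 bases. The part of this distance in the histone shares was not tested. HIST2H2AA3 was counted as 1 of the 2 higher ones, with 12.01% in shRNA-1 and 0.758% in scramble cells. Its symbol was not matched to a gene, so its distance from a transcript start was not determined. In 7 genes with both kinds, all 7 start shares were higher and all 9 downstream shares lower. The linker histone H1-2 had 56.2% in shRNA-1 and 6.42% in scramble cells at its start (authors' adjusted p = 1.36e-23), and downstream 24.9% and 38.03%, then 21.0% and 31.5%, in the same order of groups. H1-10 had 88.4% in shRNA-1 and 40.3% in scramble cells at its start, and 51.5% and 63.2% downstream. H1-4 had 37.6% and 14.3% at its start, and 24.4% and 41.8%, then 31.9% and 64.5%, downstream. In the effect table all 5 histone start peaks were higher, against 95.8% of all 544 start peaks. Of the 41 other histone peaks 32 were lower, while 63.4% of all 12576 peaks outside the start class were higher. The part of the distance from the start was not tested here either.

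**Figure D5:**
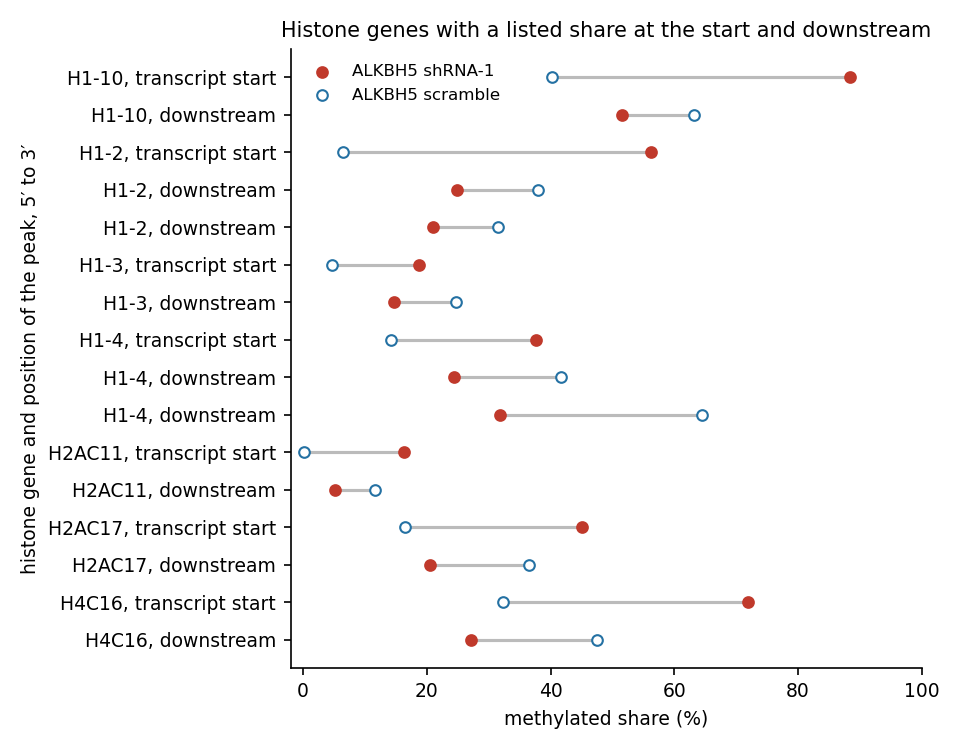
Methylated share (horizontal axis, %) in ALKBH5 shRNA-1 (filled) and scramble cells (open) at each listed peak of the 7 histone genes with a peak at the transcript start and downstream, in 5′ to 3′ order (vertical axis). No replicate error is given in the table. All 7 start shares are higher and all 9 downstream shares lower in shRNA-1 cells, as for H1-2 with 56.2% and 6.42% at its start.

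Histone RNA did not move in 1 direction. H1-2 was at 2620 and 2590 CPM in shRNA-1 libraries and at 2750, 3070 and 2770 CPM in scramble libraries, a change of -0.14 that did not pass the test (limma adjusted p = 0.462). H1-10 was at 271 and 247 CPM in shRNA-1 libraries, against 362, 390 and 433 CPM in scramble libraries, and fell by 0.60 (log2, SE 0.0871; limma adjusted p = 8.67e-05). H2AC17 was at 287 and 280 CPM in shRNA-1 libraries, against 201, 200 and 220 CPM in scramble libraries, and rose by 0.45 (limma adjusted p = 0.0059, but 0.0731 without shRNA-1 replicate 1). Copies of the replication-dependent histone genes are near identical, so reads may be split between them.

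RNA levels of the genes that carry the listed peaks were compared last, as the replicated measurement on these genes. Limma on log2(CPM + 1), over the 18227 genes averaging 1 CPM or more, called 1555 genes (8.53%), 921 higher (5.05%) and 634 lower (3.48%) in shRNA-1 libraries. Leaving out scramble replicate 1 gave 928 calls, leaving out shRNA-1 replicate 1 gave 541 and leaving out shRNA-1 replicate 2 gave 751. Of 6226 tested genes with a listed peak 13.7% were called, 533 higher and 320 lower, against 5.85% of the 12001 without one. The genes with a peak had a median level of 44.3 CPM and those without one 6.97 CPM. In genes with peaks the 853 calls came to 521 when scramble replicate 1 was left out, to 304 for shRNA-1 replicate 1 and to 431 for shRNA-1 replicate 2. Genes with only lower peaks had 152 rises and 35 falls among 1831 tested, with a median log2 change of 0.08. Genes with only higher peaks had 217 rises and 228 falls among 3070, with a median of -0.04, and genes with both had 164 rises and 57 falls among 1325. Genes with a higher start peak had 68 rises and 45 falls among 520. The median over all genes tested was 0.00.

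Read from the RNA side, the 671 peaks of genes whose RNA fell were higher in 81.7% of cases. The 1473 peaks of genes whose RNA rose were higher in 64.1%, and the 10816 peaks of genes that did not pass in 63.8%. In the lowest bin of RNA level these figures were 79.5% of 44 peaks for RNA that fell, 28.7% of 87 for RNA that rose and 42.5% of 2022 for RNA that did not pass. In the highest bin they were 89.0% of 145, 79.3% of 444 and 83.3% of 1573. The sources used here do not say whether the effects were scaled by the RNA of the same cells. If they were, both measures share the RNA-seq libraries and are not independent. No test was made between these measures.

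Single genes show the combinations. PGK1 RNA was at 450 and 419 CPM in shRNA-1 libraries, against 248, 248 and 240 CPM in scramble libraries, a rise of 0.82 (log2, SE 0.0748; limma adjusted p = 1.27e-07) in a gene whose only listed peak was the higher start. MAT2A RNA was at 134 and 113 CPM in shRNA-1 libraries, against 64.1, 50.7 and 53.9 CPM in scramble libraries, a rise of 1.12 (limma adjusted p = 2.71e-07), with 4 higher peaks. MBD6 RNA was at 31.0 and 32.8 CPM in shRNA-1 libraries, against 14.6, 15.4 and 13.9 CPM in scramble libraries, a rise of 1.07 (limma adjusted p = 0.000544), with its single higher peak. DDIT4 RNA moved the other way. It was at 174 and 157 CPM in shRNA-1 libraries, against 294, 294 and 313 CPM in scramble libraries, a fall of 0.86 (log2, SE 0.0823; limma adjusted p = 2.71e-07), with 4 of its 5 peaks higher. ASNS was at 105 and 115 CPM in shRNA-1 libraries, against 189, 169 and 173 CPM in scramble libraries, and fell by 0.68 (limma adjusted p = 2.24e-05), with 2 of its 3 peaks lower, the start peak among them. ANKRD1, a YAP target with 1 lower peak, was at 50.6 and 59.2 CPM in shRNA-1 libraries, against 0.514, 1.54 and 0.754 CPM in scramble libraries, a rise of 4.88 (limma adjusted p = 1.84e-12). AMH, with 3 higher peaks, was at 65.8 and 55.8 CPM in shRNA-1 libraries, against 5.14, 4.30 and 6.03 CPM in scramble libraries, a rise of 3.33 (limma adjusted p = 1.03e-11).

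The RNA of both hairpins was also set against each other, given the difference in direction at their start peaks. For shRNA-1 minus shRNA-2 limma called 0 of 18227 genes, with 943 (5.17%) at an unadjusted p under 0.05. edgeR on the recovered reads called 0, with 929 at an unadjusted p under 0.05, and DESeq2 called 1, with 669. ALKBH5 was at 84.7 and 84.8 CPM in shRNA-1 libraries and at 75.1 and 89.6 CPM in shRNA-2 libraries. The m6A difference between the hairpins was not tested.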

How the data were processed

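The authors deposited, for ALKBH5 shRNA-1 against scramble, differential m6A peaks with natural log effects and p-values, and a list of peaks with a methylated fraction for each group, log2 ratios of these and adjusted p-values. The natural log base was read from the values: 6.65% of the effects are natural logs of multiples of 0.5, and 0.0% are so on a log2 scale. The sources used here do not name the peak caller. Of the effect peaks 98.8% were matched to the gene table, 569 by an older symbol, and 10763 lie in genes with a RefSeq start. The share list held 4 empty rows.

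The authors deposited RNA levels as a depth-normalised signal (CPM of a normalised library size). Per the submitters' processing notes, cutadapt 1.18, HISAT2 2.1.0, featureCounts (Subread 1.6.4) and edgeR 3.24.3 were used for hg38, and the kit was stranded per the labels' protocols. Whole reads were recovered for 100% of values within 0.1 of a read, giving 4985416 to 6733017 reads in listed genes per ALKBH5-set library. Replicates differed beyond counting noise (chi-square per degree of freedom 3.76 to 7.06). The authors' deposited edgeR table gives log2 changes and FDR values. Columns of other samples numbered 0.

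RNA was tested with limma 3.58.1 (R 4.3.3, mean-variance trend, log2 of CPM plus 1, mean of at least 1 CPM, 15 libraries in 6 groups, 9 residual degrees of freedom, Benjamini-Hochberg adjusted p under 0.05). edgeR 4.0.16 and DESeq2 1.42.0 on recovered reads were alternatives, and the procedure was checked on simulated data. Log2 changes on this scale understate those of low genes. Peaks were joined in Python 3.11.15 with pandas 2.3.3 and described without tests. Named were the 12 highest and 12 lowest effects in genes of at least 10 CPM, the 10 genes with the most peaks, the 10 largest share changes in each direction, peaks in all 4 effect tables, list members and the largest RNA changes. Members, the 25 lists and the rules were chosen with earlier results of these data known, and the position classes and histones after values were seen. Some genes that these rules select are not reported here.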

Additional observations from a re-analysis of the deposited data

How the results depend on the processing

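The ALKBH5 fall ranged between -0.583 and -0.446 when 1 library was left out and was -0.475 with the replicate block (limma adjusted p = 0.0263). Deviations of same-numbered libraries had correlations of -0.0761 and -0.0409. The deviations of the shRNA-1 libraries mirror each other, so each correlation recurs with the opposite sign. These values therefore cannot tell whether the numbers pair the libraries. With the replicate block the RNA calls were 819 in all and 458 in genes with peaks. Leaving out 1 library gave 541 to 1229 and 304 to 660. edgeR and DESeq2 called 1687 and 1733 genes, and for the difference between hairpins DESeq2 called 1. Of the 27 other genes whose RNA is given, over all alternatives run, 362 values kept their call and 11 in 7 genes (KMT2B, TNRC6A, BRIP1, EIF4G1, YTHDC1, SMAD6 and H2AC17) no longer passed. NONO, at 0.00 and without a call, changed sign with DESeq2 (-0.00166), edgeR (-0.00279) and the block (-0.0117), and lay between -0.0819 and 0.0897 when 1 library was left out. Peaks higher overall were 66.3% at p under 0.001, 68.8% at an absolute effect of at least 1, 61.6% with 1 row per gene and 66.2% in genes of at least 10 CPM. With an absolute effect of at least 1 and with 1 row per gene, peaks of more than 1 block gave 85.8% and 78.8% (81.6% before) and peaks of 1 block 64.4% and 57.3% (61.0% before). The first 10% of the gene span, at 58.3%, gave 62.2% at p under 0.001 and 64.1% at an absolute effect of at least 1. The last 10%, at 59.2%, gave 62.5% at that effect, 56.4% with 1 row per gene and 62.6% over the last 20%. Counting any base in the start window, chosen after seeing the data, gave 94.7% higher at starts. By gene name, 11234 peaks shared a gene with ALKBH5 shRNA-2, 3299 with RBM33 shRNA-1 and 4337 with RBM33 shRNA-2. The cause of these moves was not tested. The peak tables hold listed rows only and no depth per peak, so peaks absent from a table cannot be read as unchanged.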
